A study of Mus musculus with 16 samples.

Results

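The 10 genes described here form the hepatocyte machinery for moving bile acids and sterols, taken by symbol from a table of 25054 gene entries. All 10 had 1 entry each. Hepatocytes take bile acids up from portal blood across the basolateral membrane, conjugate newly made bile acids to taurine or glycine, and export them into the bile canaliculus against a steep gradient, and canalicular flow of phospholipid and cholesterol travels with them. In the newborn this enterohepatic circulation is still being established. Slc10a1 (the sodium taurocholate cotransporter) and Slco1b2 (an organic anion transporter) are the uptake genes. Abcb11 (the bile salt export pump), Abcb4 (the phosphatidylcholine floppase), Abcc2 (an exporter of conjugated organic anions) and the half-transporters Abcg5 and Abcg8, which work as a heterodimer that secretes cholesterol and plant sterols, serve the canalicular membrane. Abcc3 exports organic anions back to blood, Slc27a5 activates bile acids to their coenzyme A esters, and Baat attaches the amino acid.

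Polyadenylated RNA was sequenced from lung and liver of C57BL/6J pups whose Man1a2 heterozygous parents drank N-acetyl cysteine (NAC, an antioxidant that restores glutathione; given as up to 1 g/kg body weight) or placebo water from a week before breeding until delivery. Live pups were WT or heterozygous and dead pups heterozygous or null, where heterozygous and null refer to a deletion of exon 2 of Man1a2, a mannosidase that trims N-glycans. RNA of 3 experiments was pooled before sequencing (2 for dead heterozygous pups), which gave 1 library per pup group, treatment and labelled tissue, 16 in all, so that a NAC library and its placebo library have no replicate check. Pups that died were harvested at death within 24 h and live pups at 24 h, so survival and time of harvest cannot be told apart.

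The labelled tissue and the RNA content of the libraries differed. Libraries were grouped by raw CPM (a count as a share of the library total, in parts per 1000000) of Alb, the albumin gene of hepatocytes, and Sftpc, the surfactant protein C gene of alveolar type 2 cells. Liver content meant at least 50000 CPM of Alb, and lung content at least 1000 CPM of Sftpc with Alb under 1000 CPM. By this rule 8 libraries had liver content, and 4 of these were labelled lung. Of the 7 libraries with lung content, 4 were labelled liver. The remaining library, labelled dead null placebo lung, was mixed, with 9280 CPM of Alb and 5553 CPM of Sftpc. Both dead null NAC libraries, labelled lung and liver, had liver content, with 101254 and 51003 CPM of Alb. Pup group and treatment were taken from the labels throughout, and whether those labels are right was not tested. Total counts ran from 7236865 to 16107749 per library. The ribosomal RNA symbol Rn45s took between 0.845% and 6.29% of the counts of a liver-content library and up to 26.2% of another. Summed over 12 hepatocyte markers, Alb included, the liver-content libraries held from 120276 to 169912 CPM, against 43.2 to 273 CPM in the lung-content ones. Man1a2 itself had 22.6 and 27.9 CPM in live WT and 24.5 and 29.6 CPM in dead null libraries of liver content. In lung content live WT had 60.3 and 121 CPM and dead null 70.0 CPM, and the mixed library had 56.9 CPM. The counts are by gene and do not separate exon 2.

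Of the 10 genes, 7 had a promoter window in the RefSeq table used here, and Abcc3, Baat and Slc27a5 had none. Abcg5 and Abcg8 are shown because they are a divergent gene pair whose levels were the second most alike among the 10 genes. The windows run from 250 bases before to 50 bases after the annotated start on GRCm38.p6. Matches to AGATAA, the GATA motif, on either strand are in capitals.

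Abcg5, chr17:84682962-84683261, minus strand: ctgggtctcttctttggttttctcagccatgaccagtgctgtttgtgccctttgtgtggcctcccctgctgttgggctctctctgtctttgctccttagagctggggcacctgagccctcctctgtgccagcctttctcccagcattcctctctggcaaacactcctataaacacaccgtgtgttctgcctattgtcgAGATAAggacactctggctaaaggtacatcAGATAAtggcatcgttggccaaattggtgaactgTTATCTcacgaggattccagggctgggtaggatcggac

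Abcg8, chr17:84682871-84683170, plus strand: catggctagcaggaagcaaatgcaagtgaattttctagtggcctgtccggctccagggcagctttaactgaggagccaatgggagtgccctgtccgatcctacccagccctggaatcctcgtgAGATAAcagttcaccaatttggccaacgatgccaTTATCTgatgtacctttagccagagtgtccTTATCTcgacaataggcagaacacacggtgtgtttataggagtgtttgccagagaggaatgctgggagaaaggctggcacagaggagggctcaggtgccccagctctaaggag

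These starts of Abcg5 and Abcg8 lay 110 bp apart on opposite strands, so the windows overlapped by 209 bp and held the same 3 matches. Abcg8 has another annotated start, whose window, chr17:84676052-84676351, held 0 motif matches and is not shown. AGATAA was found in 11.2% of all 32851 windows of this length. The nuclear receptor half-site AGGTCA was found in 4 of the 9 windows of these genes (some have a second start), those of Abcb11, Abcc2, Slco1b2 and the second start of Slc10a1, and in 16.3% of all windows. The window of Abcb11, the export pump, is shown with its half-site in capitals (read on the other strand, centred upstream of the start).

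Abcb11, chr2:69342567-69342866, minus strand: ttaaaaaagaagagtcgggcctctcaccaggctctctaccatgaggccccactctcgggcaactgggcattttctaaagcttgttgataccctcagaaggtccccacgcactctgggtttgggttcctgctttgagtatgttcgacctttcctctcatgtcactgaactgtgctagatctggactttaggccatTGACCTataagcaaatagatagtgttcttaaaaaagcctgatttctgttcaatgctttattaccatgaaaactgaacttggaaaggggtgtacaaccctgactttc

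A match is a run of letters and not a bound site.

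Content separated 9 of the 10 genes. The share of all genes separated in this way was not computed, and content was itself set with Alb, a hepatocyte gene. By another measure, in single pairs of a liver-content and a lung-content library, 50% to 60.4% of all genes tested were past 2-fold either way. In the 7 lung-content libraries these 9 genes gave 63 values, of which 49 were at or under 3 counts and 24 were 0, and the highest was 2.94 CPM, reached by Abcb4. In the 8 liver-content libraries the lowest value among the same 9 genes was 6.30 raw CPM, that of Baat. For Slc10a1, 28 counts were found over all lung-content libraries together and 38913 over the liver-content ones. Abcb4, the phospholipid floppase, was the member of these 9 with counts above 3 in every lung-content library, from 7 to 26 counts, and its lowest liver-content value was 28.0 times its highest lung-content value. The corresponding gap was 147 times for Slc10a1 and 139 times for Abcb11. Slc27a5 reached at most 3 counts and Abcc2 at most 1 count in a lung-content library, against at least 1329 and 1252 counts in each liver-content one. In bulk RNA, fewer cells of a type and less RNA per cell cannot be told apart.

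Abcc3, the basolateral exporter, did not follow this pattern. Its raw level was 12.9 CPM at the lowest, 23.2 at the median and 38.6 at the highest in lung-content libraries, and 9.63, 22.9 and 27.8 CPM in liver-content libraries, so the ranges overlapped. The highest value, 38.6 CPM, belonged to the library labelled live WT placebo liver, which has lung content. In the mixed library Abcc3 stood at 27.2 CPM, 119% of the liver-content median. The other 9 genes stood there at 12.9% (Abcg8) to 42.1% (Baat) of their liver-content medians, with Slc10a1 at 81.7 CPM, or 24.8%.

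**Figure D1:**
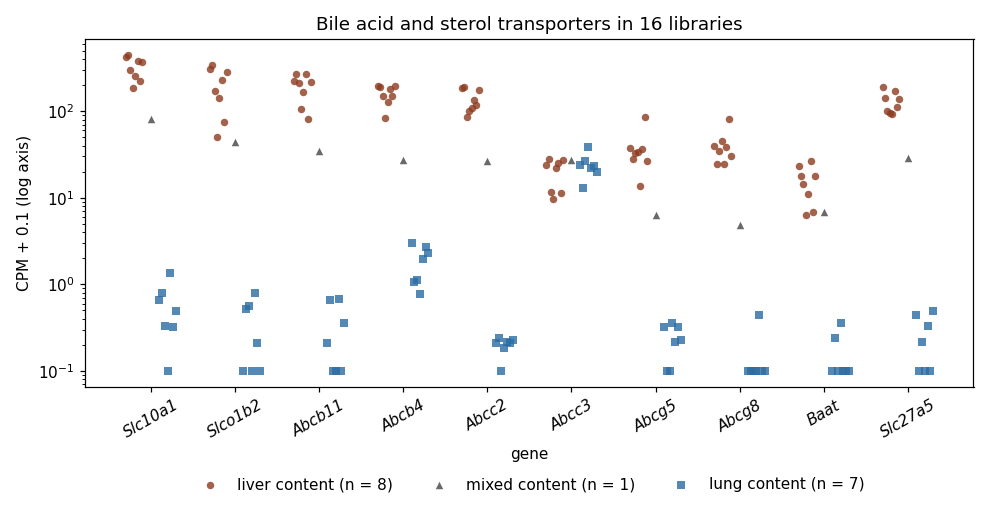
Raw CPM plus 0.1 on a log axis for each of the 10 genes, with 1 point per library, in 8 liver-content, 1 mixed and 7 lung-content libraries. Every gene but Abcc3 has its liver-content libraries above its lung-content ones, from Abcb4 at up to 2.94 CPM in lung content to Abcg8 and Baat, mostly at 0 there, and Abcc3 overlaps.

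Within liver content, levels were compared between genes as scaled CPM per kilobase of exons, where scaled means divided by library sizes adjusted with TMM factors over these 8 libraries. Slc10a1 had the highest median, 143 per kilobase (97.4 to 196), and was above the next gene in 8 of 8 libraries. The bile acid ligase Slc27a5 followed with 48.8 (40.3 to 75.2), then Abcb11 with 39.5 (15.8 to 50.1) and Slco1b2 with 39.4 (11.7 to 65.9). Abcb11 exceeded Slco1b2 in 5 of 8 libraries, so that this order did not hold beyond their spread. The lower levels were 17.4 for Abcb4 (10.08 to 20.5), 14.4 for Abcc2 (10.02 to 21.2), 12.2 for Abcg5 (5.30 to 32.3) and 9.54 for Abcg8 (6.30 to 21.9). Their ranges overlapped, Abcb4 was above Abcc2 in 5 and Abcc2 above Abcg5 in 5 of 8 libraries, and Abcg8 was above Baat in 4 of 8. Baat, the conjugating enzyme, had 7.84 (3.55 to 13.1), and Abcc3 was lowest at 4.07 (1.94 to 4.69), below Baat in 8 of 8. Exon lengths were those of all annotated exons of a gene, which need not be the transcripts expressed.

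The genes also differed in how much they varied over the 8 liver-content libraries. The highest scaled level was 6.10 times the lowest for Abcg5, 5.66 times for Slco1b2, 3.69 times for Baat, 3.47 times for Abcg8 and 3.17 times for Abcb11. It was 1.87 times for Slc27a5, 2.01 times for Slc10a1 and 2.03 times for Abcb4. Over the 8660 genes that averaged 10 CPM or more the median of this ratio was 1.91, and 7.15% of them reached 4. The libraries labelled dead null NAC lung and dead heterozygous placebo liver held the lowest value of 6 of the 10 genes between them, and dead heterozygous placebo liver the highest value of Abcg5 and of Abcg8.

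Dead pups were then compared with live pups in 4 against 4 liver-content libraries. This asks whether the transporter genes differ between dead and live pups in RNA of the same tissue content. Live libraries were WT or heterozygous and dead ones heterozygous or null, so genotype changed with survival. The fit had no term for genotype, and survival and genotype cannot be told apart here. The authors give a lower mean RNA quality for lung samples of dead pups than for all samples. RNA quality had no term in the fit either, and its part was not tested. None of the 10 genes passed edgeR's quasi-likelihood test at an adjusted p under 0.05, and none of the 12993 genes tested did (0%), although 811 genes, 6.24%, had an unadjusted p under 0.05. DESeq2 called 26 genes, 0 of them among the 10. The fitted log2 fold change, dead against live, was below 0 for 8 of the 10 genes and above 0 for Abcg5 and Abcg8, with a median of -0.42, and was below 0 for 49.5% of all genes tested. The groups overlapped for each of the 10 genes, while 2.75% of all genes did not overlap. The dead group holds 1 placebo and 3 NAC libraries against 2 and 2 in the live group. Of the dead libraries, both null NAC ones come from the same pup group and treatment and may come from the same pups, and with these summed as 1 library edgeR called 0 genes as well, with Slco1b2 at -0.82 and Abcc3 at -0.78.

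For the uptake genes the values were as follows. Slc10a1 (chr12:80953183-80968705, GRCm38, minus strand) had 413 scaled CPM in live WT placebo, 269 in live WT NAC, 431 in live heterozygous placebo and 363 in live heterozygous NAC. In dead pups it had 228 in heterozygous placebo, 292 in heterozygous NAC, and 214 and 335 in the null NAC libraries labelled lung and liver. Of the live libraries 3 were above all dead ones, and live WT NAC lay among the dead libraries. The log2 fold change was -0.46 ± 0.21 (SE; adjusted p = 0.674, edgeR). Slco1b2 (chr6:141629518-141686646, plus strand) had 299, 150, 325 and 218 scaled CPM in the live libraries in the same order, and 77.1, 170, 57.4 and 259 in the dead ones. The groups overlapped again, since the null NAC library labelled liver was above live WT NAC and live heterozygous NAC. The log2 fold change was -0.81 ± 0.46 (SE; adjusted p = 0.674, edgeR).

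Among the canalicular exporters of bile acids, phospholipid and organic anions, Abcb11 (chr2:69238282-69342616, minus strand) had 219, 174, 258 and 254 scaled CPM in live pups and 81.4, 208, 121 and 198 in dead pups, in the order given above. Dead heterozygous placebo and the null NAC library labelled lung were below every live library, and the other dead libraries were above live WT NAC. The fitted log2 fold change was -0.57 ± 0.30 (SE; adjusted p = 0.674, edgeR). Abcb4 (chr5:8893717-8959231, plus strand) was the steadiest of the transporters by coefficient of variation, 20.0% over 8 libraries, with 192, 136, 182 and 172 scaled CPM in live and 154, 149, 94.6 and 178 in dead pups. Abcc2 (chr19:43782192-43840740, plus strand) had 180, 115, 181 and 128 in live and 118, 85.5, 115 and 161 in dead pups. Both groups covered much the same range for these genes, with log2 fold changes of -0.24 ± 0.22 for Abcb4 (adjusted p = 0.724, edgeR) and -0.33 ± 0.24 for Abcc2 (adjusted p = 0.688, edgeR). Exons of Abcb11 share 136 bp with Gm13613 on the other strand, and the use of strand in the counting is not given in the sources used here.

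The sterol half-transporters were the 2 genes with fitted changes above 0. Abcg5 (chr17:84658234-84683011, minus strand) had 36.3, 14.4, 26.6 and 34.3 scaled CPM in live pups and 87.7, 32.1, 38.1 and 24.3 in dead pups. Abcg8 (chr17:84676302-84700333, plus strand) had 38.1, 25.8, 23.6 and 36.9 in live and 81.9, 34.6, 51.2 and 27.7 in dead pups. For both genes dead heterozygous placebo stood far above the other 7 libraries, the null NAC library labelled lung came next, above the live range, and the other dead libraries were within it. The log2 fold change was 0.71 ± 0.42 for Abcg5 and 0.65 ± 0.33 for Abcg8 (SE; adjusted p = 0.674 for both, edgeR), and without dead heterozygous placebo it was 0.18 and 0.28. The ratio of Abcg5 to Abcg8 in scaled CPM was between 0.746 and 1.13 in 7 libraries and 0.557 in live WT NAC. Across the 8 libraries the log2 levels of the pair had a Pearson r of 0.91 and a Spearman rho of 0.93, and r was 0.85 without the 2 libraries farthest from the median of Abcg8 and 0.75 over the 7 libraries other than dead heterozygous placebo. Their exons share 82 bp on opposite strands, and the points share library, depth and liver content.

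The pair was set against the export pump. Abcg5 was at 0.0824 to 0.315 of the scaled level of Abcb11 in 7 libraries and at 1.08 in dead heterozygous placebo. The Pearson r of Abcb11 and Abcg5 was -0.63 and the Spearman rho -0.33 over 8 libraries, with an r of 0 over the 7 other than dead heterozygous placebo and of 0.69 without the 2 libraries farthest from the median of Abcb11. Between Abcb11 and Abcg8 the Pearson r was -0.83 and the Spearman rho -0.55 over 8 libraries, but r was 0.19 without dead heterozygous placebo and dead null NAC labelled lung, the 2 libraries farthest from the median of Abcb11, so both inverse relations rest on those libraries.

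**Figure D2:**
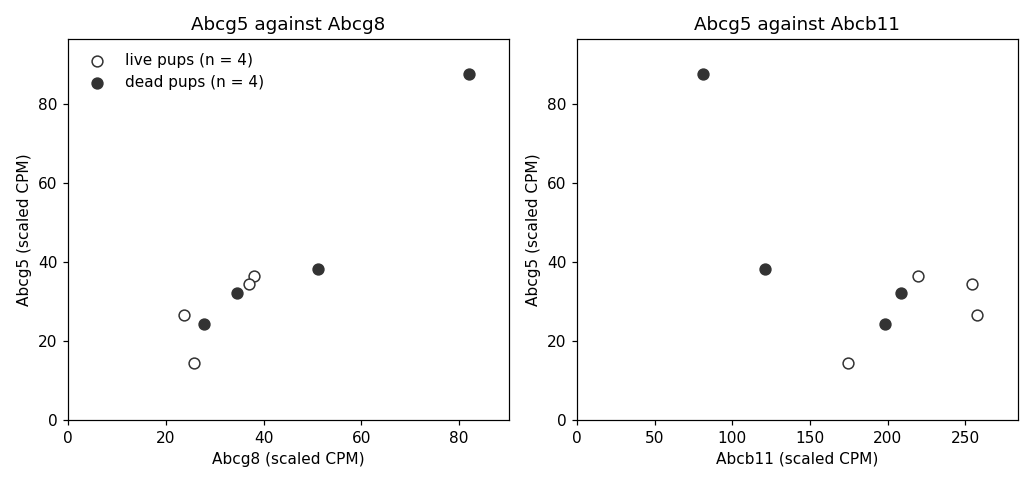
Scaled CPM of Abcg5 against Abcg8 (left) and against Abcb11 (right) in the 8 liver-content libraries, open points for live and filled points for dead pups. Abcg5 and Abcg8 lie near a line, and 1 dead library, heterozygous placebo, has 87.7 of Abcg5 with 81.4 of Abcb11.

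Abcc3, Baat and Slc27a5 complete the set. Abcc3 (chr11:94343295-94392997, minus strand) had 23.3, 23.1, 26.7 and 23.8 scaled CPM in the live libraries and 11.6, 11.5, 11.1 and 25.0 in the dead ones. The live values were close together at 24.2 ± 1.70 (SD, n = 4), while 3 dead libraries were below all of them and the null NAC library labelled liver was within their range. Its log2 fold change was -0.71 ± 0.27 (SE; unadjusted p = 0.0269, adjusted p = 0.674, edgeR). Leaving out any library but the null NAC one labelled liver gave -0.73 to -0.61 (adjusted p of 0.458 to 0.992, edgeR). Without that null NAC library, the only dead one inside the live range, it was -1.09 with an adjusted p of 0.0431 in edgeR. In that fit 18 genes in all passed, and leaving this library out sets the live and dead values of Abcc3 apart. Across 12993 genes that library had a Pearson r of 0.991 to live heterozygous placebo, the highest of 28 pairs of liver-content libraries (lowest 0.891), of 0.984 to live WT placebo and of 0.972 to live heterozygous NAC. Its r was 0.93 and 0.929 to the dead heterozygous libraries, 0.922 to live WT NAC and 0.9 to the other null NAC library. Live WT NAC, in turn, had an r of 0.974 to dead heterozygous NAC and of 0.959 to dead heterozygous placebo. To the live libraries it had 0.952 (heterozygous NAC), 0.945 (WT placebo) and 0.916 (heterozygous placebo), and 0.947 to the null NAC library labelled lung. Abcc3 is also present in lung-content libraries. The lung epithelium markers, Sftpc of the grouping rule included, summed to between 28.1 and 46.9 CPM in the liver-content libraries. They summed to at least 11050 CPM in lung-content ones.

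Baat (chr4:49489422-49506557, minus strand) had 22.4, 11.4, 16.9 and 25.4 scaled CPM in live and 6.88, 14.3, 7.24 and 16.2 in dead pups. Live WT NAC lay among the dead libraries, and the log2 fold change was -0.77 ± 0.35 (SE; adjusted p = 0.674, edgeR). Slc27a5 (chr7:12988346-12998192, minus strand) had 183, 98.5, 138 and 163 in live and 112, 98.2, 111 and 126 in dead pups. Apart from live WT NAC its live libraries were above every dead library, with a log2 fold change of -0.38 ± 0.21 (SE; adjusted p = 0.674, edgeR).

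**Figure D3:**
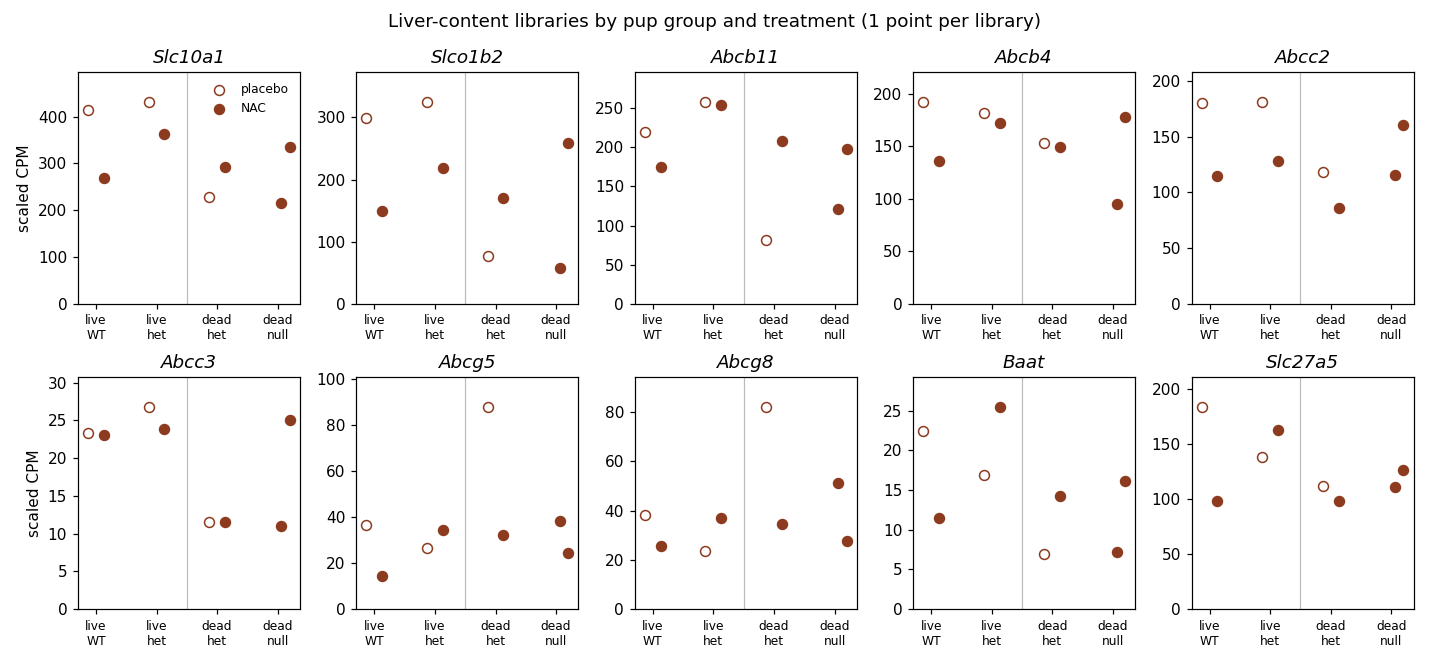
Scaled CPM of each gene in the 8 liver-content libraries by pup group, open points for placebo and filled points for NAC, with axes from 0. For dead null pups both libraries are NAC, labelled lung on the left and liver on the right. The live libraries of Abcc3 lie between 23.1 and 26.7 and 3 of the dead ones between 11.1 and 11.6, and dead heterozygous placebo is highest for Abcg5 and Abcg8.

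Marker sums were set beside these values. The hepatocyte sum was 140876 to 160470 raw CPM in live and 120276 to 169912 in dead liver-content libraries, and the 12 hepatocyte markers had a median log2 fold change of 0.07 with 5 of 12 below 0. Single markers moved more, and 2 of 12 had an unadjusted p under 0.05 (smallest adjusted p = 0.483, edgeR). Tat had 141 to 372 scaled CPM in live and 308 to 2157 in dead libraries, and Ass1 22.6 to 40.2 and 74.2 to 114. Kupffer cell and macrophage markers summed to 463 to 569 CPM in live and 219 to 534 in dead libraries, with 7 of 7 genes below 0 and a median of -0.58. Erythroid markers ranged from 6510 to 39984 CPM in live and from 7699 to 39678 in dead libraries. Cholangiocyte markers, whose cells also transport bile acids, summed to 105 to 121 CPM in live and 104 to 155 in dead libraries. The part of these cell types in the values of the transporters was not tested.

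NAC was compared with placebo over the same 8 libraries with pup group as a block. The dead null group has no placebo library of liver content, so the contrast rests on the live WT, live heterozygous and dead heterozygous pairs, each with a library labelled lung and a library labelled liver. edgeR's quasi-likelihood test called 0 of the 10 genes and 0 of 12993 (0%), with 649 genes at an unadjusted p under 0.05, and DESeq2 called 30 genes, 0 of them among the 10. The fitted log2 fold changes were below 0 for 8 of the 10 genes with a median of -0.19, and below 0 for 49.4% of all genes. Abcc2 had -0.54 ± 0.20 (SE; unadjusted p = 0.036, adjusted p = 0.949, edgeR), and it was lower with NAC in 3 of 3 pairs (180 to 115, 181 to 128 and 118 to 85.5 scaled CPM). Abcg5 had -0.82 ± 0.41 (SE; adjusted p = 0.949, edgeR), with Abcg5 lower with NAC in live WT and dead heterozygous pups and higher in live heterozygous pups. Without 1 library the value of Abcg5 lay between -1.41 and -0.48, and with the mixed library added it was -0.02. For the other 8 genes the fitted change lay between -0.40 and 0.32. Erythroid markers were higher with NAC in 3 of 3 pairs, with sums of 17240 and 39984 CPM in placebo and NAC of live WT, 6510 and 31470 of live heterozygous and 32915 and 39678 of dead heterozygous pups, and 0 of 7 were below 0 (median 1.03). Pancreas markers summed to 239 CPM in dead heterozygous NAC, 28.7 in live heterozygous NAC and at most 2.41 in the other liver-content libraries. The part of these cells in the NAC differences was not tested.

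Pair by pair, the 3 groups differed in which genes moved past 2-fold. In live WT pups Abcg5 was 2.53 times lower with NAC and was the 1 gene of 10 past 2-fold, against 11.6% of all genes in that pair. Slco1b2, Baat and Slc27a5 were lower by 1.996, 1.96 and 1.86 times. In live heterozygous pups 0 of 10 genes were past 2-fold, against 5.2% of all genes, and Abcg8, at 1.56 times higher with NAC, was the furthest in that direction. In dead heterozygous pups 5 of 10 were past 2-fold, against 6.4% of all genes. There Abcb11 was 2.56, Slco1b2 2.21 and Baat 2.07 times higher with NAC, and Abcg5 was 2.73 and Abcg8 2.37 times lower. These are single pairs of libraries, with no replicate check and no test.

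**Figure D4:**
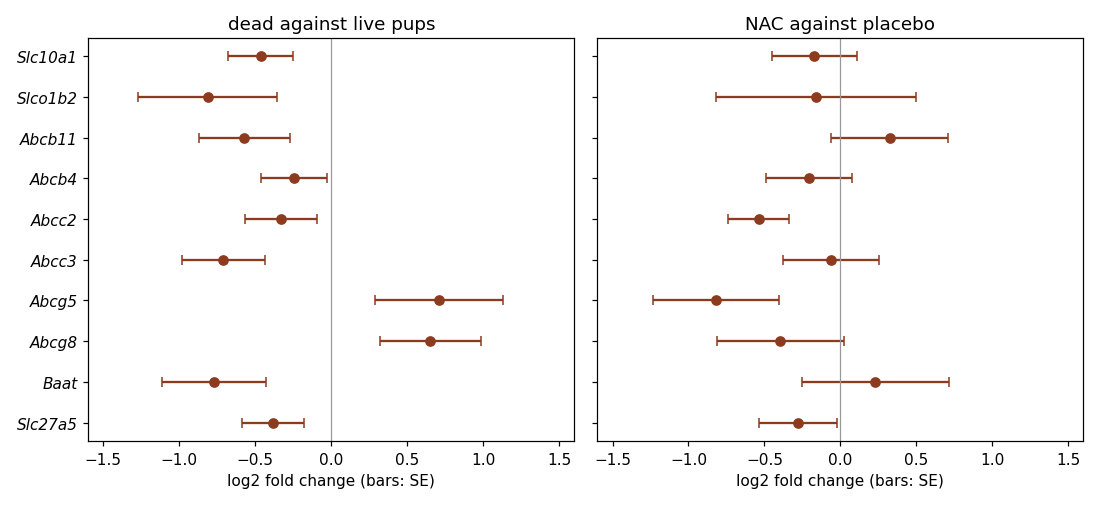
Fitted log2 fold change with its standard error for each gene in the liver-content libraries, dead against live pups (left) and NAC against placebo (right). Left, 8 genes lie below 0 and Abcg5 (0.71) and Abcg8 (0.65) above it. Right, Abcg5 (-0.82) and Abcc2 (-0.54) are furthest from 0, and 0 of the 10 genes passed in either comparison.

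Genotype was compared within live and within dead pups. All null pups died within 1 h of birth, by the authors' report, and the dead heterozygous pups within 24 h. Genotype and age at death therefore cannot be told apart among dead pups. Live heterozygous against live WT gave 0 called genes of 12993 (0%) in edgeR, with 207 at an unadjusted p under 0.05 and 6 in DESeq2, and log2 fold changes of the 10 genes between 0.00041 (Abcg8) and 0.49 (Abcg5). Dead null against dead heterozygous also gave 0 (0%), with 1240 at an unadjusted p under 0.05 and 239 in DESeq2, 0 of them among the 10 genes. There the changes lay between -0.39 (Abcg5) and 0.73 (Abcc2, with an SE of 0.27 and an adjusted p of 0.483 in edgeR). Beside them, 7 of 7 erythroid markers were below 0 (median -1.57) and 0 of 7 Kupffer cell and macrophage markers were (median 0.76), while 3 of 3 tested pancreas markers were below 0, and their part was not tested. Dead null NAC is present as a pair of liver-content libraries, and these were set against each other after their values had been seen. Slco1b2 was 4.51, Abcc3 2.26 and Baat 2.23 times lower in the one labelled lung, so 3 of 10 genes were past 2-fold, against 27.3% of all genes, a difference within 1 pup group and treatment.

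By label, the NAC and placebo libraries of a group have unlike content, and the 9 genes other than Abcc3 followed the content. Among libraries labelled liver, 9 of 10 genes were past 2-fold higher with NAC in live WT pups (50% of all genes were past 2-fold either way), in live heterozygous pups (50.4%) and in dead null pups (55.9%), and 9 of 10 were lower with NAC in dead heterozygous pups (52%). Among those labelled lung, 9 of 10 were lower with NAC in live WT (56%) and 10 of 10 in live heterozygous pups (60.4%), while 9 of 10 were higher in dead heterozygous (51.3%) and 7 of 10 in dead null pups (47%). Slc10a1, for example, had 3630 counts in live WT NAC and 0 in live WT placebo among those labelled liver, and 5 and 6597 among those labelled lung. For these 9 genes the library of a pair with the higher counts was the one with liver or, in dead null placebo against dead null NAC labelled lung, more liver content.

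Tested over the 4 groups with pup group as a block, NAC against placebo among libraries labelled liver called 0 of 10 genes and 0 of 14266 (0%) in edgeR, with 63 at an unadjusted p under 0.05, while DESeq2 called 736 genes and 9 of the 10. Without the library labelled dead heterozygous NAC liver, 8394 genes and 10 of the 10 passed in edgeR, and without dead heterozygous placebo liver 8455 and 10. Among libraries labelled lung 0 of 10 and 0 of 14086 (0%) passed in edgeR, 312 had an unadjusted p under 0.05, and DESeq2 called 28, with 0 of the 10. Content and treatment changed together within each pair, and the sign of the NAC difference of the 9 genes turned between pairs wherever the content did.

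Other genes of the pathway were followed in 4 lists in the liver-content libraries. For dead against live pups 0 genes of each list passed edgeR's test. Of 12 measured genes of bile acid synthesis 11 had a fitted change below 0 (median -0.42), as did 9 of 13 receptors and regulators (median -0.34), 8 of 10 other transporters of bile acids, organic ions and phospholipid (median -0.55) and 5 of 9 genes of sterol uptake and efflux (median -0.08), against 49.5% of all genes. For NAC against placebo 0 genes of each list passed as well, with 6 of 12, 12 of 13, 5 of 10 and 4 of 9 below 0.

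Another 5 genes are given for their roles, chosen after their values were seen. Cyp7a1, the rate-limiting enzyme of the classic route of bile acid synthesis, ranged from 28.8 to 66.2 scaled CPM over the 8 libraries, with a log2 fold change of -0.36 ± 0.27 in dead against live pups (adjusted p = 0.704, edgeR). Cyp27a1, which starts the alternative route, was the 1 gene of its list above 0, at 0.68 ± 0.31 (adjusted p = 0.674, edgeR). Nr1h4, the bile acid receptor, had -0.40 ± 0.29, and Nr0b2, the repressor it induces, -0.66 ± 0.59 (adjusted p = 0.693 and 0.729, edgeR). Nr1h3, an oxysterol receptor known to induce Abcg5 and Abcg8, had a change of -0.82 ± 0.50 (adjusted p = 0.674, edgeR), with 9.03 scaled CPM in dead heterozygous placebo, where Abcg5 and Abcg8 were highest, and 48.3 in live heterozygous placebo.

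Levels of the 10 genes were also related to one another and to other genes over the 8 liver-content libraries, as a description only. Slc10a1 and Slco1b2 were the most alike (Pearson r = 0.96, Spearman rho = 0.98, and r = 0.94 over 6 libraries without the 2 farthest from the median of Slc10a1). Among 8650 other genes that averaged 10 CPM or more, Fmo5 and Akr1c14 were nearest in pattern to Slc10a1 and Cdc14b and Tfpi2 to Slco1b2. For the canalicular exporters they were Acox2 and Adk (Abcb11), Uso1 and Rab43 (Abcb4), Sphk2 and Mia2 (Abcc2), Edem3 and Ercc2 (Abcg5) and Zfp598 and Urb2 (Abcg8). For the remaining genes they were Tyk2 and Cyp2b9 (Abcc3), Aifm1 and Cd74 (Baat) and Gstk1 and Cyp2a12 (Slc27a5). The Pearson r of these 20 genes with their partners lay between 0.96 and 0.99 over 8 points.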

How the data were processed

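Libraries were made with a stranded mRNA kit. The authors trimmed adapters, aligned them with the Omicsoft Sequence Aligner (Ensembl mouse reference, GRCm38) and deposited estimated counts per gene symbol without normalization, of which 6.5% to 8.24% in a library were not whole. How counting used strand is not given in the sources used here. The submitters' processing notes name R 4.0.3, edgeR 3.30.3 and mm10.

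Estimated counts were rounded, although the design had assumed counts. Of the columns, 0 belonged to no sample. Genes averaging 1 CPM or more were tested with edgeR 4.0.16 (TMM factors, quasi-likelihood, R 4.3.3) and adjusted by Benjamini-Hochberg over all genes, with 0.05 as the threshold. Samples are pools with 1 library per group, treatment and label, so p-values measure only the spread between libraries. Dead against live pups had status alone as its term, and NAC against placebo and both genotype contrasts had pup group and treatment. Single pairs had no test, used a prior count of 0.125, and were called past 2-fold. Their TMM factors came from the 8 liver-content libraries for pairs within liver content. For pairs by label they came from all 16 libraries, of both contents. The floor was 3 counts, and depth limits cover counting error only. The quasi-likelihood step was first tested on simulated data with known changes. Alternatives were DESeq2 1.42.0, relative log expression factors, library size alone, other filters, hepatocyte-marker scaling, added or summed libraries, no block, and leaving out each library.

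Named genes were the 10 members, Alb, Sftpc, members of other lists past a test (at most 3 each way), and for each member the 2 genes with the highest Pearson r of log2(scaled CPM + 1). No gene of another list passed a test. Another 5 pathway genes, the hepatocyte markers Tat and Ass1, and genes named only for a property of the libraries or an overlap (Man1a2, Rn45s, Gm13613), fall outside this rule. The members and lists were chosen with earlier results of these data known. Positions and exon lengths come from GENCODE M21 on GRCm38, and promoters from RefSeq on GRCm38.p6. Other steps used Python 3.11.15, pandas 2.3.3 and numpy 2.4.6. Quantitative PCR, survival and histology were not analysed here.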

Additional observations from a re-analysis of the deposited data

Results flagged for a closer look

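Abcc3 in the 4 dead liver-content libraries was flagged for 1 library far from the others. The gap of dead null NAC labelled liver, at 25.0 scaled CPM, to the nearest other library was 0.947 of the whole range on the log2 scale, above Dixon's 95% critical value for 4 samples. It was the 1 flag among 30 groups examined, and chance flags about 1 in 20.

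Among libraries labelled lung, 9 of the 10 genes were lower with NAC in both live pairs and higher in both dead pairs. This difference between live and dead pups was not tested, and the content of these libraries changes with it. Abcc3 was the exception, with fewer counts under NAC in all 4 pairs. Counts follow library size, and in live WT its raw CPM was 24.1 with NAC and 23.9 with placebo.

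The mixed library, which enters none of the comparisons within liver content, held 9 of the 10 genes above every lung-content library, with Abcc3 the exception. Its class was itself set by Alb, a hepatocyte gene, above the limit for lung content. The share of all genes above every lung-content library was not computed.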

How the results depend on the processing

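In edgeR 0 genes passed in the 6 tests, and alternatives in scaling and filtering kept that count at 0. DESeq2 called 26 genes for dead against live, 30 for NAC against placebo, 6 for live heterozygous against live WT and 239 for dead null against dead heterozygous in liver content, and 736 and 28 for NAC in libraries labelled liver and lung. Leaving out 1 library gave 0 to 18 genes for dead against live (18 without dead null NAC liver), 0 to 4 for NAC against placebo (4 without dead null NAC lung), 0 to 0 for live heterozygous against live WT, 0 to 1 for dead null against dead heterozygous (1 without either dead null NAC library), 0 to 8455 for libraries labelled liver (8394 without dead heterozygous NAC, 8455 without dead heterozygous placebo) and 0 to 0 for those labelled lung. With library size alone, 4 of the 10 genes were past 2-fold in the liver-content live WT pair and 5 in the dead null NAC pair, the latter set up after seeing the data. Levels per kilobase moved by less than 1 SD without TMM factors.

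Of 350 fold changes of single genes over the alternatives to both main tests, 326 kept their direction and side of the threshold, 1 passed it (Abcc3) and 23 changed sign. With only libraries labelled liver, dead against live was 0.11 for Abcb4 and 0.20 for Abcc2, and -0.13 for Slco1b2. Leaving out 1 library, it was -1.29 to -0.57 for Slco1b2, -0.76 to -0.36 for Abcb11 and -0.37 to -0.10 for Abcb4. For NAC against placebo with the mixed library added, the change was 0.40 for Slc10a1, 0.47 for Slco1b2, 0.46 for Abcb4, 0.19 for Abcc2, -0.02 for Abcg5, 0.44 for Abcg8 and 0.37 for Slc27a5. Leaving out 1 library gave -0.43 to 0.052 for Slc10a1, -0.78 to 0.28 for Slco1b2, -0.17 to 0.67 for Abcb11, -1.41 to -0.48 for Abcg5, -0.92 to 0.042 for Abcg8, -0.19 to 0.82 for Baat and -0.56 to 0.027 for Slc27a5. The sign of the NAC difference of Slc10a1, Slco1b2 and Slc27a5 turned without either live WT library, that of Abcb11, Abcg8 and Baat without either dead heterozygous library, and that of Slco1b2 also without either live heterozygous library. Pup group was the block, and without it Baat was -0.045 and 0 of the 10 genes passed. The cause was not tested.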
